A study of Mus musculus with 6 samples.

Results

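The 10 genes described here encode the enzymes and regulators that make and break down polyamines: Odc1, Srm, Sms, Amd1, Azin1, Oaz1, Oaz2, Sat1, Smox and Paox. They were taken by gene symbol from tables of 49671 genes, and all 10 had a row. RNA was sequenced from CD3+ T cells of the spleens of female F1 mice, in 3 libraries of cells stimulated for 48 h with plate-bound anti-CD3 at 1 µg/ml and soluble anti-CD28 at 10 µg/ml (day 2) and 3 libraries of unstimulated cells (day 0). These antibodies engage the T cell receptor and its costimulatory receptor. In both groups C57BL/6 mothers (mus) carrying a heterozygous Xist deletion had been mated to M. m. castaneus fathers (cast). A daughter with the deleted allele silences the cast X throughout and keeps the mus X active. Stimulated cells had been cultured and unstimulated cells had not, so stimulation and culture cannot be told apart, and neither can strain and parent of origin, because only 1 direction of the cross was used. The T cells came from enrichment columns, and no source used here states the mice's ages.

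Polyamines (putrescine, spermidine and spermine) are small positively charged molecules that bind nucleic acids, and cells need them to grow and divide. ODC1 makes putrescine from ornithine, AMD1 makes the aminopropyl donor from S-adenosylmethionine, SRM joins the donor to putrescine to give spermidine, and SMS adds a further group to give spermine. Antizymes (OAZ1, OAZ2), whose translation needs a polyamine-stimulated ribosomal frameshift, bind ODC1 and send it to the proteasome, and the antizyme inhibitor AZIN1 binds antizymes in its place. SAT1 acetylates spermidine and spermine for export or for oxidation by PAOX, whereas SMOX oxidises spermine directly. T cells are known to raise polyamine synthesis when they are activated, and Odc1 is a classic target of the transcription factor MYC.

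Diploid expression was deposited as RPKM (reads per kilobase per M reads, M standing for mega) with both alleles together, and allele-specific data as whole reads assigned to mus or cast. The allele-assigned depth was 14.9 M to 20.2 M reads per stimulated library and 9.61 M to 11.9 M reads per unstimulated library, and cast made up 49.3% to 49.4% of autosomal reads. All 10 T cell markers were at or above 1 RPKM in every library of both groups. Summed RPKM was 948 to 1011 in stimulated and 810 to 967 in unstimulated libraries for these T cell markers, against 61.3 to 118 and 723 to 1111 for 10 B cell markers, 7.08 to 11.7 and 1240 to 3570 for 10 myeloid markers, 10.6 to 15.9 and 259 to 360 for 7 NK cell markers, and 2.32 to 15.4 and 82.7 to 1342 for 9 erythroid and platelet markers. The myeloid marker Retnlg was listed at 0 in all stimulated libraries, and no marker of these lists was at 0 in all unstimulated libraries. The 8 markers of dividing cells summed to 556 to 562 RPKM in stimulated and 90.03 to 191 RPKM in unstimulated libraries. Unstimulated replicate 3 was the highest of its group for B cell, myeloid, NK cell, erythroid and dividing cell markers. The part of these cells in the results below was not tested, and in bulk RNA fewer cells of a type and less RNA per cell cannot be told apart.

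The synthesis genes were higher after stimulation, and the acetylation gene Sat1 was lower. Of the 10 genes, 7 rose and 2 fell in limma's moderated test on log2(RPKM + 1), and Smox did not pass (adjusted p = 0.126). A gene was called at a Benjamini-Hochberg adjusted p under 0.05 over all 13288 genes that reached 1 RPKM in 3 or more libraries. Among those genes 80.1% passed, 31.2% higher (4148 genes) and 48.9% lower (6494 genes), so that passing the test was common. The median log2 change was 0.55 over the 10 genes and -0.24 over all genes tested. Centring each library on its median changed the split of all genes to 5432 higher and 5206 lower, and quantile normalisation to 5394 and 4878, with 8 of the 10 genes higher and 2 lower under both. Groups did not overlap for 9 of the 10 genes, against 83.5% of all genes tested. Replicates were labelled biological, with no statement on which animals they came from.

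**Figure D1:**
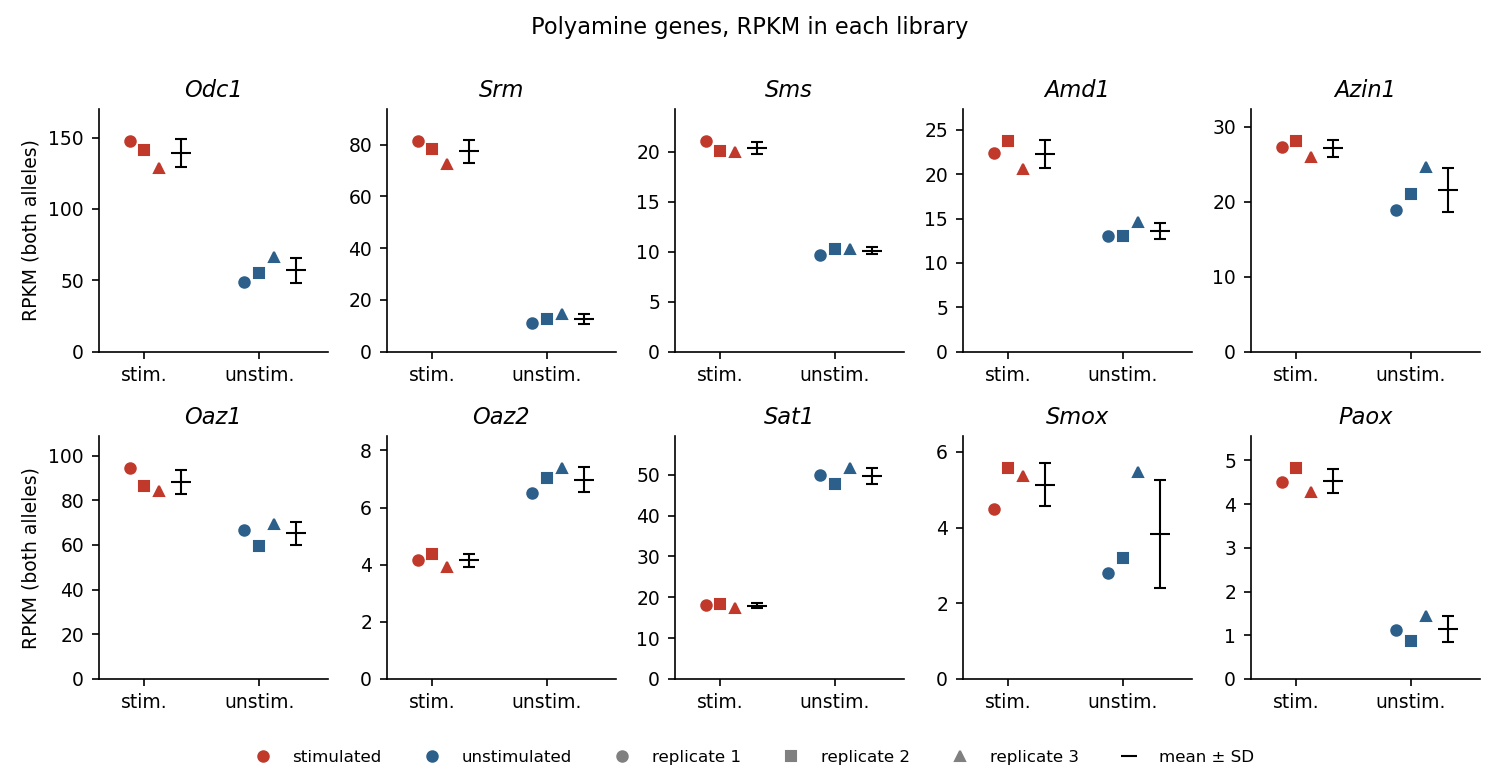
RPKM of each polyamine gene (y axis, from 0) in the 3 stimulated and the 3 unstimulated libraries, with the mean and SD beside the points. Odc1, Srm, Sms, Amd1, Azin1, Oaz1 and Paox are higher in every stimulated library, Sat1 and Oaz2 are lower, and the groups overlap for Smox.

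Odc1 (ENSMUSG00000011179, chr12:17544794-17551505, plus strand, mm10), the ornithine decarboxylase gene, was the most abundant of the 10 after stimulation. Its RPKM was 147.9, 141 and 129 in stimulated libraries, against 48.9, 55.4 and 66.4 in unstimulated libraries. The means were 139 ± 9.69 and 56.9 ± 8.84 RPKM (SD, n = 3 each), a 2.45-fold higher level (log2 change 1.29, SE 0.118, limma adjusted p = 7.1e-05). Every stimulated library lay above every unstimulated one. This rise depended on the measure, as set out with the alleles below. On summed allelic reads the log2 change was 0.21 (edgeR with TMM factors, adjusted p = 0.0413) or 0.18 (DESeq2, adjusted p = 0.0936).

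Srm (chr4:148591503-148594993, plus strand), which makes spermidine, had the highest fold of the 10. It stood at 81.5, 78.2 and 72.5 RPKM in stimulated libraries, against 10.9, 12.5 and 14.5 RPKM in unstimulated libraries. Its mean of 77.4 ± 4.54 RPKM after stimulation was 6.12 times the 12.6 ± 1.83 RPKM of unstimulated cells (log2 change 2.53, SE 0.105, adjusted p = 3.1e-06). By level, Srm had rank 3 of the 10 in stimulated and rank 6 in unstimulated cells.

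Sms (chrX:157443855-157492287, minus strand), the spermine synthase gene, had the tightest replicates of the synthesis genes. Its RPKM was 21.1, 20.1 and 19.96 in stimulated libraries, against 9.66, 10.2 and 10.3 in unstimulated libraries, a 2.03-fold higher mean (log2 change 0.95, SE 0.0562, adjusted p = 1.05e-05). Amd1 (chr10:40287458-40302186, minus strand), which supplies the aminopropyl donor to both synthases, rose least of the synthesis genes. It had 22.4, 23.8 and 20.6 RPKM in stimulated libraries, against 12.98, 13.1 and 14.6 RPKM in unstimulated libraries (1.64-fold, log2 change 0.68, SE 0.0765, adjusted p = 0.000191). Reads of Amd1 are hard to tell from those of Amd2, whose transcript is 99.6% identical over 3202 bases and was listed at 5.93 ± 0.486 RPKM in stimulated and 3.81 ± 0.537 RPKM in unstimulated cells (SD, n = 3 each). Relative to the median of all genes tested, the log2 changes were 1.53 for Odc1, 2.77 for Srm, 1.19 for Sms and 0.92 for Amd1.

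The sequences before the starts of 3 of these genes are shown because Odc1 and Sms rose and Sat1 fell, and because the 2 last are X-linked. They are the 250 bases before a RefSeq start on GRCm38.p6, read along the gene's strand, with capitals marking motif matches. Odc1 is at chr12:17544623-17544872 on the plus strand, Sms at chrX:157492288-157492537 on the minus strand and Sat1 at chrX:155216450-155216699 on the minus strand. The RefSeq start used can differ from the gene position given here. The Odc1 window thus reaches into the annotated gene, which starts at 17544794.
Odc1: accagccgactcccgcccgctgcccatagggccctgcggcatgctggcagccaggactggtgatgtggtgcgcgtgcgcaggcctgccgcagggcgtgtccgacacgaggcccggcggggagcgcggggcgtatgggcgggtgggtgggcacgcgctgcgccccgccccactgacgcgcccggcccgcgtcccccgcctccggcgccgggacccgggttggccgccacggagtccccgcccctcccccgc
Sms: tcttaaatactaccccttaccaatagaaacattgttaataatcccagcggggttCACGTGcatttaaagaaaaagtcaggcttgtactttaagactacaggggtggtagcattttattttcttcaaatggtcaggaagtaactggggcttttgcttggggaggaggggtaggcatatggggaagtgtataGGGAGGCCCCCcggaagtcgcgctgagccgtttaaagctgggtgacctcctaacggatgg
Sat1: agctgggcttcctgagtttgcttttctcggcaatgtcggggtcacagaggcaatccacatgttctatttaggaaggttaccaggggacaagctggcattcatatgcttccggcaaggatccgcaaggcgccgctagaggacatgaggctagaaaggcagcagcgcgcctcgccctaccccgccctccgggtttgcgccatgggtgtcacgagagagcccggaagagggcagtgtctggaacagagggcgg
Windows were found for 8 of the 10 genes, and not for Srm and Azin1. Those of Oaz2, Smox and Paox lie within the gene positions given below. Both strands were searched for the E-box CACGTG, the TATA box TATAAA, the AP-1 motif TGANTCA and the NF-kB consensus. The capitals in the Sms window are a CACGTG from 196 bases before the start and, from 60 and 59 bases before it, 2 overlapping matches to the NF-kB consensus. The table also holds a window for another Sms start, chrX:157491369-157491618, with an NF-kB match from 103 bases before the start and no E-box. That window lies within the Sms position given above. The E-box is held by 6.02% of the 32851 windows in the table and, of the 8 genes, by Sms alone, in the window shown. The NF-kB consensus is held by 7.25% of windows and by those of Oaz1 and Sms. TATAAA (12.4% of windows) and TGANTCA (6.75%) were not in these windows of the 8 genes. A match is a description of the letters and not a bound site. Sequence outside these windows, introns among it, was not searched, so a motif missing here may lie elsewhere in a gene.

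The antizyme arm moved in both directions. Oaz1 (chr10:80826656-80829290, plus strand), the main antizyme gene, had 94.4, 86.5 and 84.0 RPKM in stimulated libraries, against 66.8, 59.5 and 69.3 RPKM in unstimulated libraries (1.35-fold, log2 change 0.43, SE 0.0789, adjusted p = 0.00197). Its processed copy Oaz1-ps, 99.3% identical over 685 bases, was listed at a mean of 21.2 RPKM in stimulated and 15.3 RPKM in unstimulated cells. Oaz2 (chr9:65668001-65690300, plus strand), a second antizyme, had 4.15, 4.39 and 3.91 RPKM in stimulated libraries, against 6.51, 7.03 and 7.39 RPKM in unstimulated libraries. Its mean was 0.595 times that of unstimulated cells (log2 change -0.63, SE 0.0772, adjusted p = 0.000285), and the groups did not overlap. On summed allelic reads Oaz2 no longer passed (log2 change -0.39, edgeR adjusted p = 0.0583, and -0.42, DESeq2 adjusted p = 0.0520).

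Azin1 (chr15:38487427-38519266, minus strand), the antizyme inhibitor, had 27.4, 28.1 and 25.9 RPKM in stimulated libraries, against 18.9, 21.04 and 24.7 RPKM in unstimulated libraries. Its groups were close but did not overlap (1.26-fold, log2 change 0.33, SE 0.098, adjusted p = 0.0187). Its exons overlap those of the antisense gene Gm49077, and the strand setting of the counting is not stated. The call was lost without stimulated replicate 1 (adjusted p = 0.0557), stimulated replicate 2 (0.0646) or unstimulated replicate 2 (0.0565), and on summed allelic reads (log2 change 0.14, edgeR adjusted p = 0.186, and 0.11, DESeq2 adjusted p = 0.382). Relative to the median of all genes tested, the log2 changes were 0.68 for Oaz1, -0.39 for Oaz2 and 0.57 for Azin1.

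The breakdown genes did not move together. Sat1 (chrX:155213132-155216449, minus strand), the acetyltransferase gene, fell most of the 10. It had 18.1, 18.4 and 17.3 RPKM in stimulated libraries, against 49.9, 47.7 and 51.7 RPKM in unstimulated libraries. The means were 17.9 ± 0.557 and 49.7 ± 2.01 RPKM (SD, n = 3 each), a level 0.360 times that of unstimulated cells (log2 change -1.42, SE 0.0553, adjusted p = 2.5e-06). By level it had rank 7 in stimulated and rank 3 in unstimulated cells. The summed myeloid, B cell, NK cell, and erythroid and platelet markers were lower in the same stimulated libraries, as given above. Their part in the fall of Sat1 was not tested. Unstimulated replicate 3, with the highest sum of its group for each of these lists, had 51.7 RPKM of Sat1 against 47.7 to 49.9 RPKM in the other 2. Leaving out single libraries gave log2 changes from -1.45 to -1.39.

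Paox (chr7:140115799-140137224, plus strand), the oxidase of acetylated polyamines, was low in both groups and rose. It had 4.50, 4.83 and 4.27 RPKM in stimulated libraries, against 1.11, 0.872 and 1.45 RPKM in unstimulated libraries (3.96-fold, log2 change 1.38, SE 0.117, adjusted p = 5.0e-05). The log2 change understates the fold of such a low gene because 1 is added to each RPKM. A processed copy, Gm19680, is 99.9% identical over 1358 bases and was listed at 3.94 RPKM in stimulated and 0.766 RPKM in unstimulated cells, so reads of the 2 may not be separable, and exons of Paox overlap those of Echs1 on the opposite strand, which counting without strand would not separate. Smox (chr2:131491496-131525922, plus strand), the spermine oxidase gene, had 4.49, 5.58 and 5.35 RPKM in stimulated libraries and 2.81, 3.21 and 5.47 RPKM in unstimulated libraries. Its log2 difference was 0.38 (95% interval -0.11 to 0.87, adjusted p = 0.126), and unstimulated replicate 3 lay within the stimulated range. Smox passed the test without that library (0.61, adjusted p = 0.00183), with median centring (0.64, adjusted p = 0.0100) and with quantile normalisation (0.77, adjusted p = 0.00685). Relative to the median of all genes tested, the log2 changes were -1.18 for Sat1, 1.62 for Paox and 0.62 for Smox.

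The order of the 10 genes by level differed between groups. In stimulated cells Odc1 came first, followed by Oaz1, Srm, Azin1, Amd1, Sms, Sat1, Smox, Paox and Oaz2, and the ranges of Amd1 and Sms, Smox and Paox, and Paox and Oaz2 overlapped. In unstimulated cells Oaz1 and Odc1 came first with overlapping ranges, followed by Sat1, Azin1, Amd1, Srm, Sms, Oaz2, Smox and Paox. The ranges of Odc1 and Sat1 and of Amd1 and Srm also overlapped there. Summed over the 10 genes, RPKM was 426, 411 and 383 in stimulated libraries and 228, 231 and 266 in unstimulated libraries. Of that sum Srm took 19.0% ± 0.0934 in stimulated and 5.22% ± 0.397 in unstimulated cells, and Sat1 took 4.42% ± 0.150 and 20.7% ± 1.195 (SD, n = 3 each). Odc1 took 34.2% ± 0.547 in stimulated and 23.5% ± 1.85 in unstimulated cells.

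Ratios within a library do not depend on how libraries are scaled to each other, and 7 were compared. The ratio of Odc1 to Sat1, the entry step of synthesis against the acetylation step, was 8.18, 7.67 and 7.44 in stimulated libraries, against 0.980, 1.16 and 1.28 in unstimulated libraries. Spermidine synthase relative to spermine synthase (Srm to Sms) was 3.80 ± 0.144 in stimulated and 1.25 ± 0.145 in unstimulated cells (SD, n = 3 each). Odc1 relative to Oaz1 was 1.58 ± 0.0511 in stimulated and 0.873 ± 0.123 in unstimulated cells, and relative to Azin1 it was 5.13 ± 0.241 and 2.63 ± 0.0552. Oaz1 relative to Oaz2 was 21.3 ± 1.53 in stimulated and 9.37 ± 0.899 in unstimulated cells, and Sat1 relative to Smox was 3.52 ± 0.441 and 14.0 ± 4.23. In all 6 of these ratios the groups did not overlap (exact two-sided permutation p = 0.1, the smallest that 3 against 3 libraries allow, adjusted p = 0.117 over the 7). Azin1 relative to Oaz1 was 0.308 ± 0.0179 in stimulated and 0.331 ± 0.0410 in unstimulated cells, with overlapping groups (exact permutation p = 0.5). The ratio of Odc1 to Oaz1 changed direction when summed allelic reads replaced RPKM, with a log2 difference of -0.25 in place of 0.86. On that measure the difference was also 0.070 in place of 0.96 for Odc1 to Azin1 (exact permutation p = 0.2), 1.61 in place of 2.77 for Odc1 to Sat1 and -0.32 in place of -0.10 for Azin1 to Oaz1 (exact permutation p = 0.1 for both).

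**Figure D2:**
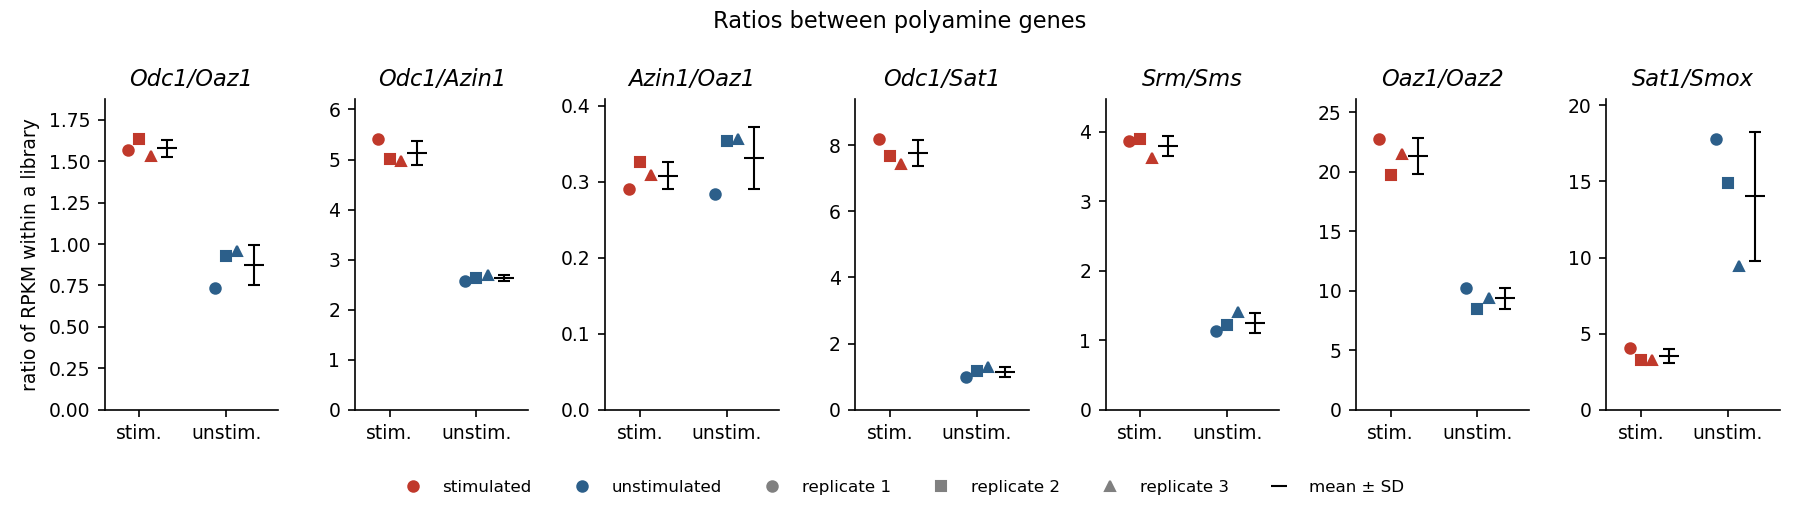
Ratios of RPKM between pairs of polyamine genes within each library (y axes from 0, no unit), for 3 stimulated and 3 unstimulated libraries, with the mean and SD beside the points. The groups are apart in 6 of the 7 ratios and overlap for Azin1 to Oaz1.

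The genes around the 10 in the pathway were described from a list of 31, of which 21 passed the filter on low values. Of these 21, 15 rose, 4 fell and 2 did not pass (median log2 change 0.65, against -0.24 for all genes tested), beside 31.2% higher and 48.9% lower over all genes tested. All 4 genes of hypusination, the spermidine-dependent modification of the translation factor eIF5A, rose. Eif5a itself had the largest change of them, with 582 ± 10.5 RPKM in stimulated and 136 ± 25.2 RPKM in unstimulated cells (SD, n = 3 each, log2 change 2.11, adjusted p = 1.25e-05). In the salvage of methylthioadenosine, the by-product of both synthases, 4 of 5 genes rose, led by Mri1 (log2 change 1.06, adjusted p = 1.58e-05). Adi1 was barely past the threshold (log2 change 0.18, adjusted p = 0.0473) and lost its call with most single libraries left out.

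Among 5 tested genes that supply ornithine and arginine, 4 rose and 1 fell. Aldh18a1, which makes the glutamate-derived precursor of ornithine and proline, had 61.6 ± 1.05 RPKM in stimulated and 16.2 ± 3.55 RPKM in unstimulated cells (log2 change 1.89, adjusted p = 2.48e-05). Slc7a1, a transporter of arginine and ornithine, had 34.2 ± 2.47 and 11.4 ± 0.388 RPKM (log2 change 1.503, adjusted p = 4.14e-06). Arg2, the mitochondrial arginase that makes ornithine from arginine, had 0.0316 ± 0.0349 RPKM in stimulated and 3.74 ± 0.700 RPKM in unstimulated cells (log2 change -2.19, adjusted p = 8.19e-06). Of 4 transport genes, 2 rose and 2 fell. Slc3a2, the heavy chain of several amino acid exchangers, had 104 ± 3.57 RPKM in stimulated and 31.3 ± 0.265 RPKM in unstimulated cells (log2 change 1.70, adjusted p = 9.9e-07), whereas Slc22a3, an organic cation transporter, had 0.00821 ± 0.00732 and 1.97 ± 0.863 RPKM (log2 change -1.52, adjusted p = 0.000338). Of the 2 tested genes that supply S-adenosylmethionine, 1 fell and 1 did not pass, and the 1 further paralogue tested, Amd2, rose. Myeloid, B cell and NK cell markers were lower in the same stimulated libraries, and their part in the low Arg2 and Slc22a3 levels was not tested.

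**Figure D3:**
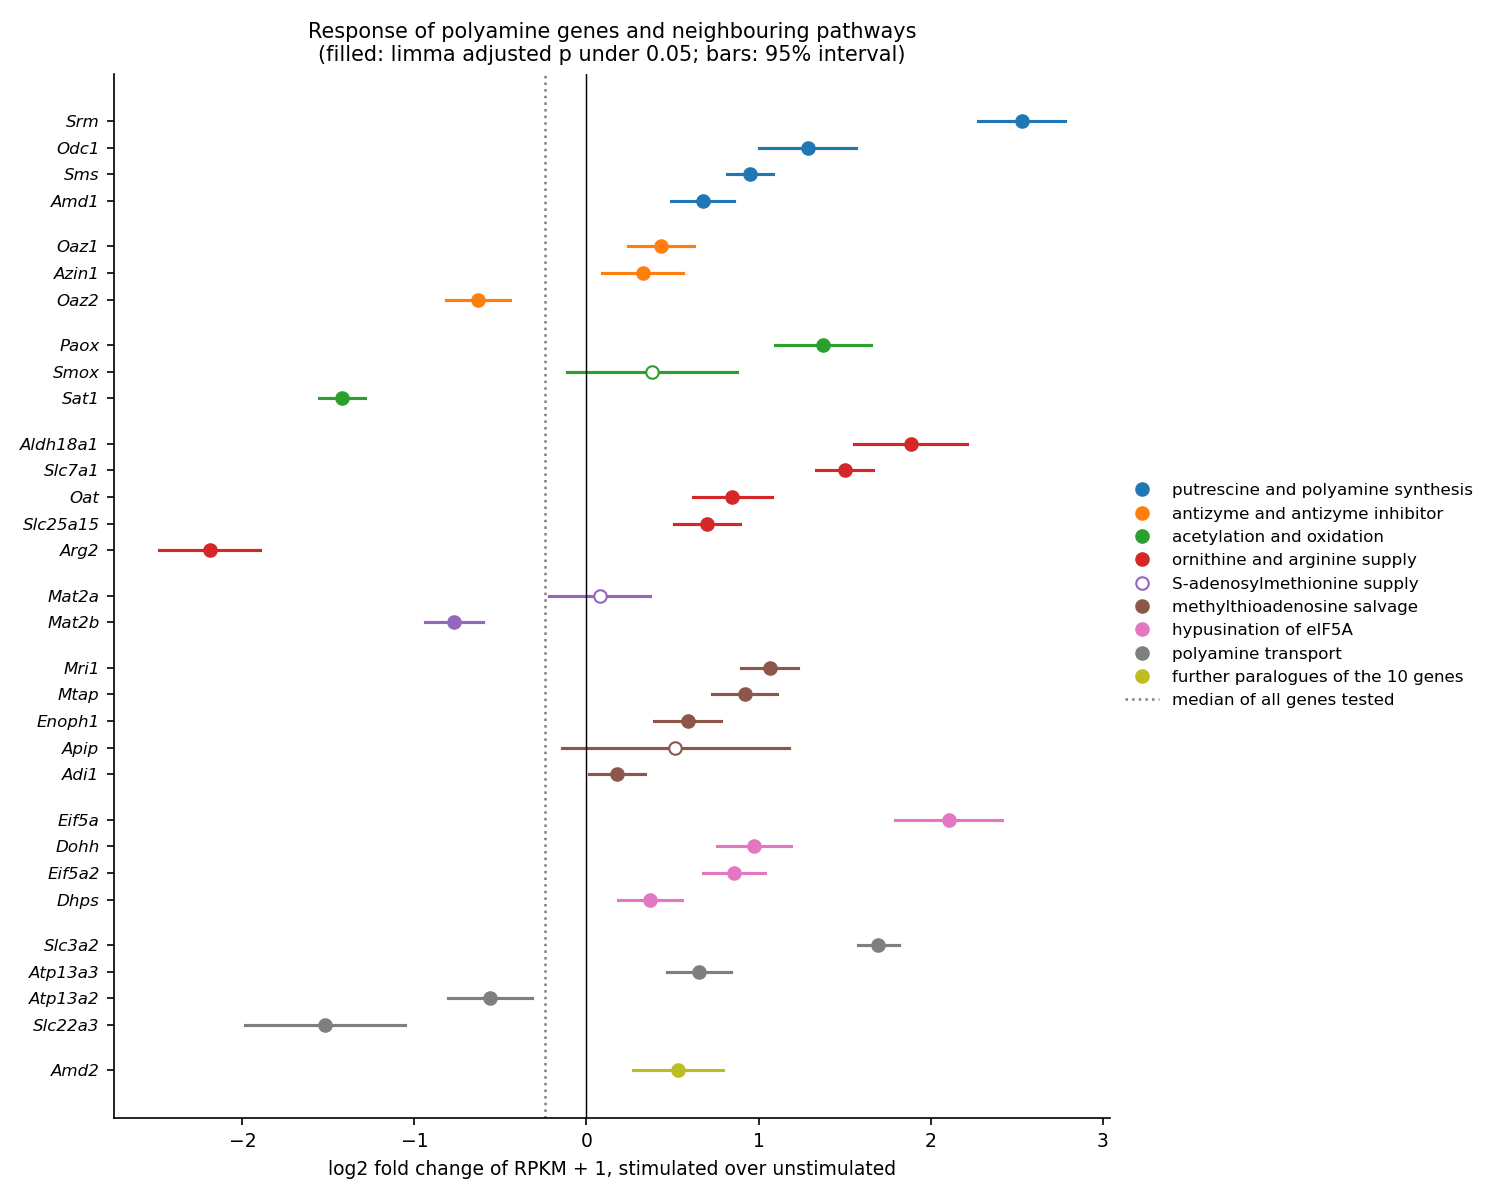
Log2 fold change of RPKM + 1, stimulated over unstimulated (x axis), for the 10 polyamine genes and the tested genes of the surrounding pathways (y axis), with 95% intervals from limma. Filled points passed an adjusted p of 0.05, and the dotted line is the median of all genes tested at -0.24.

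By likeness over the 6 libraries, the genes nearest to Odc1 were Uchl5, Umps and Tomm70a, with Euclidean distances of 0.0909, 0.0914 and 0.102 in log2(RPKM + 1) centred on each gene's mean. Those nearest to Sat1 were Fam208a, Ttc7 and 9930120I10Rik, at 0.0848, 0.0860 and 0.0866. The search covered the 13288 genes tested.

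The alleles of Odc1 were read nearly equally in unstimulated cells and mostly from mus after stimulation. The cast share of its allelic reads was 16.7%, 15.4% and 17.4% in stimulated libraries (304 of 1820, 311 of 2014 and 377 of 2161 reads), against 50.1%, 46.9% and 42.1% in unstimulated libraries (675 of 1346, 523 of 1116 and 594 of 1412 reads). Within unstimulated cells the log2 ratio of cast to mus of Odc1 was -0.21 and did not pass (edgeR adjusted p = 0.0869). Within stimulated cells it was -2.34 (edgeR adjusted p = 6.6e-11). These tests were passed by 31.6% and 39.1% of all genes. Unstimulated replicate 3 had an interval of 39.5% to 44.7%, below its autosomal cast share of 49.3%. The 95% exact Clopper-Pearson intervals of single libraries ran from 13.9% to 19.1% in stimulated and from 39.5% to 52.9% in unstimulated cells. They cover counting error only, with each read taken as independent. Whether reads of the same fragment were counted separately was not tested, and that would make the intervals too narrow. The change in the ratio of cast to mus was -2.12 on the log2 scale (edgeR quasi-likelihood test of allele by group, adjusted p = 7.0e-08), and all 3 stimulated libraries lay below all unstimulated ones. Odc1 was the 1 gene of the 10 with a changed share by this test. The test covered 12834 genes, each with 30 or more allelic reads in both groups, summed over the libraries of a group. Of these 10.2% passed. For the X-linked Sms and Sat1, with at most 2 cast reads in a group, the test could hardly find a changed share. Odc1 ranked 209 among all falls by size. That test left out the pairing by replicate number, and with the number as a block Oaz1 passed as well (adjusted p = 0.0150).

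Per M allelic reads, the mus allele of Odc1 had 94.7 ± 6.81 reads in stimulated and 62.6 ± 6.65 reads in unstimulated cells (SD, n = 3 each). The cast allele had 18.8 ± 1.58 and 53.9 ± 3.13 reads, 0.348 times the unstimulated level. Summed over alleles Odc1 had 113 ± 7.85 reads per M in stimulated and 117 ± 3.52 in unstimulated cells, a ratio of 0.974. Its RPKM was 2.45 times as high in stimulated cells. Reads per M carry no TMM factors, unlike the edgeR test of summed reads above, which put Odc1 slightly higher in stimulated cells. The allelic reads per M for each RPKM were 0.815 ± 0.0210 in stimulated and 2.07 ± 0.253 in unstimulated cells, a log2 change of -1.35. Over 8499 genes with at least 50 allelic reads and 1 RPKM in every library this change had a median of 0.17, and its 5th and 95th percentiles were -0.20 and 0.32. In all, 5 of the 10 genes lay below that span, Odc1 furthest, followed by Azin1 at -0.45, Amd1 at -0.27, Oaz1 at -0.23 and Smox at -0.23. A smaller part of the Odc1 signal was assigned to an allele after stimulation, and what fell out of the assignment was not tested.

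**Figure D4:**
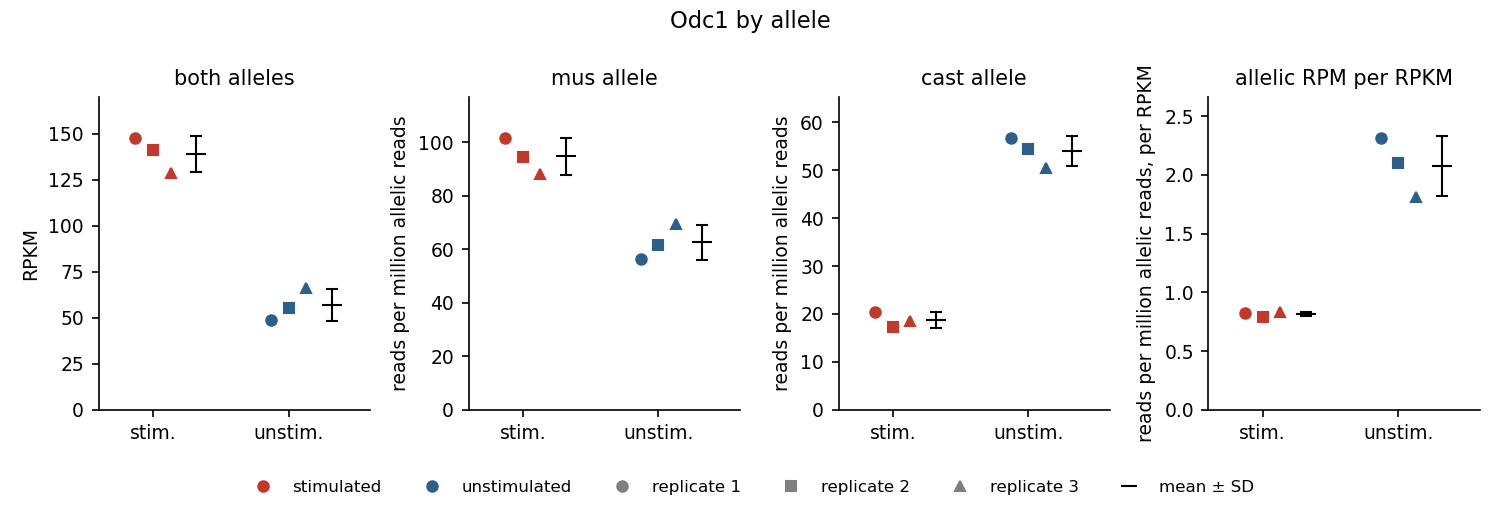
Odc1 in each library as RPKM of both alleles, as mus and as cast reads per M allelic reads, and as allelic reads per M for each RPKM (y axes from 0), with the mean and SD beside the points. RPKM and mus reads are higher in the 3 stimulated libraries, and cast reads and the assigned part are lower.

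Odc1 has 12 near copies among annotated transcripts, at 90% identity or more over at least 500 bases, and 10 of them are in the tables with a summed mean of 31.6 RPKM in stimulated and 11.6 RPKM in unstimulated cells. The most abundant was the processed pseudogene Gm7993 on chromosome 5, 95.7% identical over 1388 bases, with 20.4 RPKM in stimulated and 4.08 RPKM in unstimulated cells. Gm7993 had 0 mus and 321 cast reads over the stimulated libraries and 0 mus and 24 cast reads over the unstimulated ones. The first 80 coding bases of Odc1 are set beside the matching bases of Gm7993 to show how alike they are, from GENCODE M21 transcripts, with capitals at the 2 differences.
Odc1 coding start: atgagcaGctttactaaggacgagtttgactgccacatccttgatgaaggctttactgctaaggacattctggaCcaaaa
Gm7993: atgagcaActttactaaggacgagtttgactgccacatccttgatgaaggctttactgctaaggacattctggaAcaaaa
Whether reads moved between Odc1 and its copies was not tested. An intron of Odc1 also holds the small nucleolar RNA gene Gm22748, listed at 9.55 RPKM in stimulated and 77.0 RPKM in unstimulated cells.

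Oaz1 was read mainly from cast in both groups. Its cast share was 69.1%, 69.3% and 71.8% in stimulated libraries, against 60.4%, 65.5% and 67.3% in unstimulated libraries, on 1095 to 2455 allelic reads per library. Within stimulated cells cast exceeded mus by 1.23 on the log2 scale (edgeR adjusted p = 1.1e-08), and within unstimulated cells by 0.86 (adjusted p = 1.5e-06), in tests that 39.1% and 31.6% of all genes passed. The share was higher in every stimulated library, and the change of 0.37 on the log2 scale did not pass without the replicate pairing (adjusted p = 0.0626). It passed with the replicate number as a block (0.37, adjusted p = 0.0150), without unstimulated replicate 3 (0.47, adjusted p = 0.0359) and with a filter of 1 allelic read (0.37, adjusted p = 0.0266). The allelic assignment gave no reads to Oaz1-ps.

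Smox was read mainly from mus. Its cast share was 29.8%, 23.5% and 35.9% in stimulated libraries and 37.1%, 34.2% and 39.1% in unstimulated libraries, with overlapping groups and 116 to 328 allelic reads per library. The log2 ratio of cast to mus was -1.25 in stimulated cells (adjusted p = 0.000192) and -0.77 in unstimulated cells (adjusted p = 0.0106). The call in unstimulated cells was lost without unstimulated replicate 3 (-0.85, adjusted p = 0.0799) and with DESeq2 (-0.78, adjusted p = 0.0756). The change with stimulation did not pass (-0.48, adjusted p = 0.359).

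The other autosomal genes showed no call between alleles in either group, except that Azin1 passed in stimulated cells with TMM factors per allele column (log2 ratio of cast to mus 0.22, adjusted p = 0.0436). Mean cast shares were 51.9% ± 2.34 in stimulated and 59.7% ± 5.78 in unstimulated cells for Srm, 48.8% ± 2.60 and 51.7% ± 5.39 for Amd1, 53.0% ± 0.893 and 52.6% ± 2.88 for Azin1, 47.5% ± 3.92 and 50.3% ± 2.77 for Oaz2, and 49.2% ± 3.76 and 51.6% ± 10.7 for Paox (SD, n = 3 each). Srm had only 61 to 87 allelic reads per unstimulated library and Paox 40 to 86, so a moderate imbalance was not detectable there. The rises of Srm and Paox were seen on both alleles: Srm had 17.8 ± 2.49 mus and 19.2 ± 3.00 cast reads per M in stimulated cells, against 2.54 ± 0.243 and 3.83 ± 0.847 in unstimulated cells, and Paox had 12.3 ± 0.890 and 11.98 ± 1.85, against 3.11 ± 1.38 and 3.10 ± 0.587.

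The X-linked genes Sms and Sat1 were read almost wholly from the active mus X. Sms had 2, 0 and 0 cast reads among 2283, 2705 and 3053 allelic reads in stimulated libraries, and 0 among 912, 704 and 869 in unstimulated libraries. The 2 reads are a share of 0.0876% (95% exact interval 0.0106% to 0.316%), and a count of 0, taken as a floor of 3 counts of the total, allows up to 0.111% and 0.0983% in the other stimulated libraries and up to 0.426% in the shallowest unstimulated one. Sat1 had 0, 0 and 2 cast reads among 558, 579 and 599 in stimulated libraries, and 0, 0 and 2 among 1187, 1036 and 1211 in unstimulated libraries, with up to 0.538% allowed by a count of 0 on the same floor. These limits also take each read as independent. All X-linked genes other than Xist together had cast shares of 3.70% to 3.87%. Both changes with stimulation were therefore changes of mus reads: Sms had 151 ± 1.58 mus reads per M in stimulated and 74.6 ± 1.80 in unstimulated cells, and Sat1 had 33.0 ± 4.05 and 103.5 ± 4.05 (SD, n = 3 each).

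**Figure D5:**
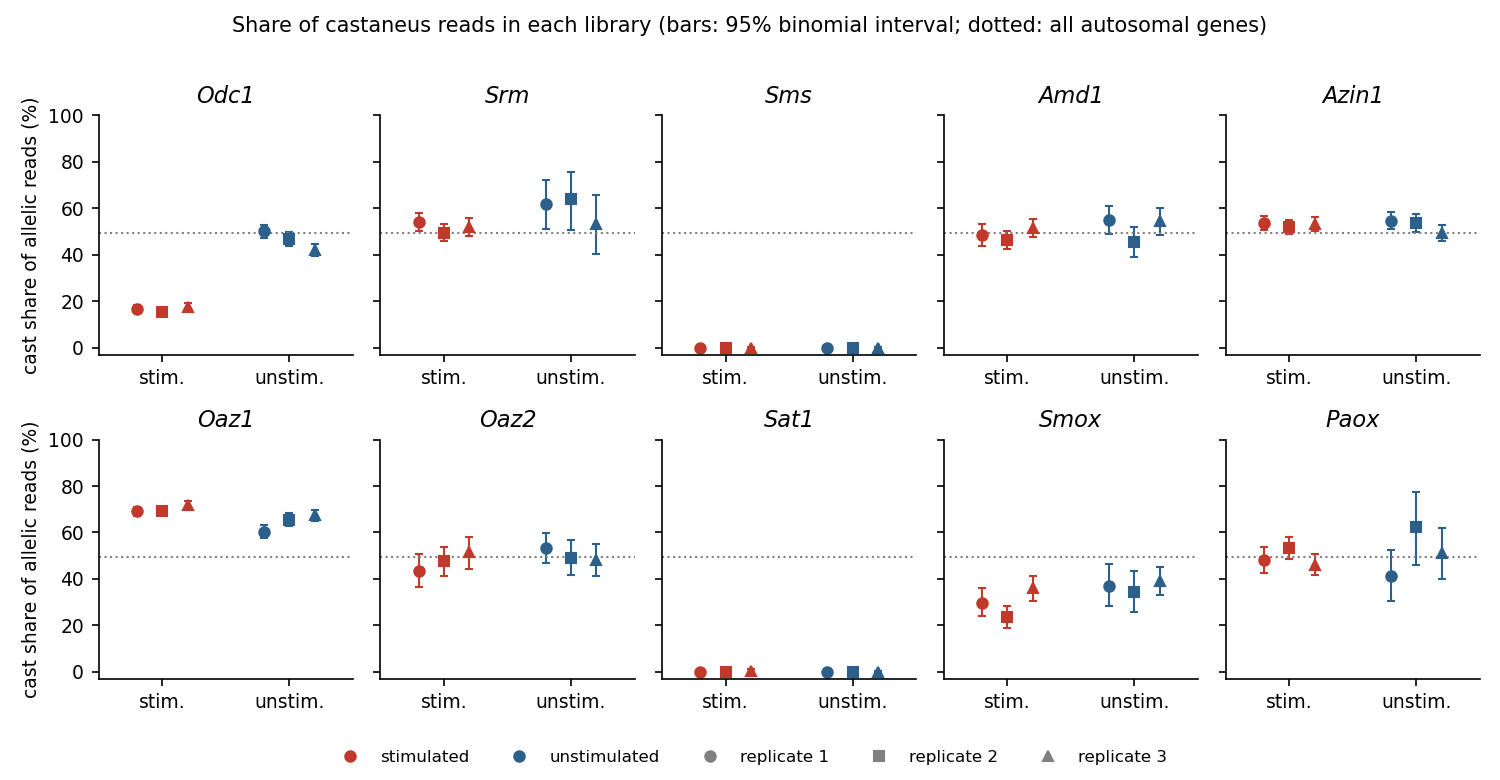
Cast share of allelic reads (y axis, percent) of each polyamine gene in the 3 stimulated and the 3 unstimulated libraries, with 95% binomial intervals and a dotted line at the share of all autosomal genes. Odc1 lies at 15.4% to 17.4% in stimulated and 42.1% to 50.1% in unstimulated libraries, Oaz1 above the line, Smox below it, and the X-linked Sms and Sat1 at or near 0.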

How the data were processed

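Libraries of splenic CD3+ T cell RNA were made with a stranded total RNA kit that depletes ribosomal RNA, per the labels' protocols. STAR 2.7.1a, featureCounts and the build mm10 are named in the submitters' processing notes. The authors deposited RPKM for both alleles together and whole-number counts of reads per allele, per the file headers. No source used here gives the rule that assigned reads to alleles, the annotation, the strand setting of the counting or the denominator of RPKM. Low RPKM values of single-exon genes fell on multiples of 0.5 of the commonest step in 97.8% to 98.4% of cases, and on whole steps in 66.5% to 68.4%. If that step is 1 read, the libraries held 22.8 M, 27.1 M and 30.4 M reads in stimulated and 16.4 M, 12.7 M and 15.0 M reads in unstimulated cells. Values between whole steps would then be counts of 0.5 of a read. What the step stands for was not tested, so these depths are conditional. Of 49671 genes, 49326 (99.3%) matched GENCODE M21 by identifier, which gave the positions. Libraries were grouped by their labels, and no 2 libraries were identical.

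RPKM were compared with limma 3.58.1 (trend, two-sided, R 4.3.3) on log2(RPKM + 1), since the deposited RPKM are not counts. The alleles were compared with edgeR 4.0.16 (quasi-likelihood) on allelic counts, with 1 term per library and no TMM factors. DESeq2 1.42.0 was the alternative. Reads summed over both alleles were compared between groups with edgeR and TMM factors, or with DESeq2 and its own scaling. In these fits group was the only term. P-values were adjusted over the whole set of genes in each fit (Benjamini-Hochberg). Folds are ratios of mean RPKM. Near copies were sought with BLAST 2.17.0. The tests were tried on simulated data, in which allele shares did not vary between libraries of a group beyond counting error. Those data cannot show how the allelic tests handle such variation or pairing. Replicate numbers are shared by the groups. Centred log2 ratios of cast to mus correlated at 0.28, 0.30 and 0.18 between libraries of equal number over 9043 genes, so the numbers pair the allelic data. Diploid expression correlated at 0.00603, 0.0611 and 0.0908 and was tested without pairing. Correlations near 0 do not show that the libraries are unpaired. The main test of allele by group left this pairing out, and the replicate block was an alternative to it. All 10 genes are named, with pathway genes that passed at an absolute log2 change of at least 1 and the 3 genes nearest to Odc1 and to Sat1. Genes, lists and tests were chosen with earlier results of these data known. Alternatives were pseudocounts, filters, scalings, tools, the replicate block and leaving out each library.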

Additional observations from a re-analysis of the deposited data

Results flagged for a closer look

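The log2 ratio of cast to mus reads of Odc1 changed by -2.12 with stimulation, and the test of the allele by group term itself flagged this difference between the groups (edgeR adjusted p = 7.0e-08). Leaving out single libraries gave -2.25 to -2.01, with adjusted p from 3.6e-07 to 3.1e-06. The share of Odc1 signal assigned to an allele and the level of the copy Gm7993 moved with it, and their part was not tested.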

How the results depend on the processing

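On the RPKM scale, 6 to 8 of the 10 genes rose and 2 fell under all pseudocounts, filters, scalings and single-library omissions tried (of 9 genes where all 6 libraries had to reach 1 RPKM), while summed allelic reads gave 6 higher and 1 lower with edgeR and 5 higher and 1 lower with DESeq2. Genes called over the whole table numbered 8457 to 9707 when single libraries were left out, and 917 to 1061 had a changed cast share. Calls between alleles numbered 3479 to 4051 in stimulated cells and 2673 to 3414 in unstimulated cells, against 5018 and 4061 with all libraries, and the lowest, 2673, came without unstimulated replicate 3. Their cause beyond having fewer libraries was not tested. With the replicate block, 10464 genes were called for RPKM and 1666, in place of 1314, for the cast share, Azin1 had adjusted p = 0.0369 and Odc1 -2.12 (adjusted p = 6.9e-22), and of the 10 genes the block changed the call of Oaz1 alone. A paired exact test of the ratios cannot go below p = 0.25.

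Directions that turned were those of values near 0 and the ratio of Odc1 to Oaz1, -0.25 on summed allelic reads. With TMM factors per allele column the log2 ratio of cast to mus of Paox in stimulated cells was 0.0078. Leaving out single libraries gave ranges of -0.17 to 0.052 for that ratio, -0.22 to 0.35 for Paox in unstimulated cells, -0.36 to 0.18 for the change of Paox, -0.15 to 0.0030 for Amd1 in stimulated cells, -0.071 to 0.088 for the change of Azin1 and -0.076 to 0.080 for Oaz2 in unstimulated cells. Depth limits the allelic results most for Srm and Paox in unstimulated cells and for cast reads of Sms and Sat1, for which no fitted ratio is given.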

Other observations

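Of 20 pathway genes tested, 5 had a changed cast share (edgeR, allele by group), a test that 10.2% of all genes passed, and they are named here after their values were seen. Adi1, of methylthioadenosine salvage, had 49.6% ± 4.37 in stimulated and 68.1% ± 3.19 in unstimulated cells (adjusted p = 0.00032), and Mri1 of the same pathway had 46.1% ± 1.83 and 35.5% ± 2.23 (adjusted p = 0.0487). Slc7a1 had 50.03% ± 0.200 in stimulated and 57.5% ± 0.370 in unstimulated cells (adjusted p = 3.47e-05). Mat2a, the catalytic subunit that makes S-adenosylmethionine, had 78.8% ± 1.06 and 86.5% ± 2.85 (adjusted p = 0.0111), and Atp13a2, a lysosomal polyamine exporter, had 57.7% ± 0.623 and 51.9% ± 2.72 (adjusted p = 0.0476, SD, n = 3 each). Adi1 and Slc7a1 passed whichever single library was left out, with adjusted p up to 0.00253 and 0.000472. Mat2a lost its call without unstimulated replicate 2 (adjusted p = 0.0564). Mri1 lost its call under each single omission (0.0650 to 0.140) and Atp13a2 under each but that of unstimulated replicate 2 (0.0237, the others 0.0933 to 0.172).

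Eif5a differed between replicate numbers rather than between groups. Its cast share was 98.9%, 54.1% and 56.8% in stimulated replicates 1, 2 and 3, and 95.02%, 53.2% and 55.7% in unstimulated replicates 1, 2 and 3, on 771 to 5969 allelic reads per library. The libraries numbered 1 had 68 mus reads of 5969 in stimulated and 53 of 1064 in unstimulated cells. This gene was singled out after its values were seen. Amd2, which is 99.6% identical to Amd1, had 0 mus reads in all libraries and 204 cast reads in stimulated and 42 in unstimulated cells. Like Gm7993, other near copies had cast reads only. In stimulated cells these were 24 for Gm17709 and 8 for the X-linked Gm9115, copies of Odc1, and 42 for Amd-ps5, a copy of Amd1. The copies AW146154, Gm7278, Gm12846 and Sms-ps had mus reads. Whether such reads came from the copies themselves was not tested.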
